A study of Mus musculus with 5 samples.

Results

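The T-box family was followed across 5 lines derived from Neuro2A cells, a mouse neuroblastoma culture, with 1 Affymetrix array per line. The members were 9 genes, Tbx1, Tbx2, Tbx3, Tbx4, Tbx5, Tbx6, Tbx15, Tbx18 and Tbx20, out of 18193 genes with at least 1 probe set of a single gene symbol. They were found by symbol, which gave 19 of the 45037 probe sets on the array. The family itself was selected on a measured value, the lower Tbx2 signal in the KDM7 knockdown lines, so the T-box genes' differences between knockdown and control are given as descriptions without a test. The study asked how expression depends on KDM7, the product of Kdm7a, which removes methyl groups from histone H3 lysines. The 3 control lines were the parental cells (N2A), cells carrying an empty vector, and cells carrying a knockdown vector against EGFP, a jellyfish-derived fluorescent protein that mouse cells lack. The 2 knockdown lines, KDM7 KD1 and KDM7 KD2, were stable transfectants, each with its own vector against KDM7. All 5 lines share the Neuro2A background and standard culture, and differ in the vector alone as far as the labels say. The labels do not say whether a line is 1 clone or a pool, or whether lines were grown side by side.

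T-box proteins are transcription factors named for a shared DNA-binding domain. Tbx2 and Tbx3 act mainly as repressors and hold back cell cycle inhibitors, while Tbx4, Tbx5, Tbx6 and Tbx20 mostly act as activators or do both, depending on partner proteins. The genes lie partly in linked pairs, Tbx2 beside Tbx4 and Tbx3 beside Tbx5. Most are known for the patterning of mesoderm, limb and heart, and in human neuroblastoma TBX2 is counted among the transcription factors that maintain the tumour cell state.

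The values are MAS5 signals, a linear brightness in arbitrary units, and no detection calls were used. A probe set was tested if its mean log2 signal over the 5 lines reached the median of all probe sets, a signal of 40.5. It is called bright in every line if all 5 values reached that level. The level is a convention and not a measured background, and brightness depends on the probes, so signals of different probe sets do not rank transcripts. In bulk RNA, fewer cells of a type and less RNA per cell cannot be told apart. Of 14 sympathoadrenal marker genes on the array, 11 were bright in every line, among them Hand2, Phox2a, Prph and Stmn2. Th was bright in the parental line alone, and the neurofilament genes Nefl and Nefm in none. The summed signal of the 14 genes was 65894 to 69930 in the control and 68168 to 73376 in the knockdown lines, carried by the brightest of them. Of the 11, 3 lay below every control line (10.2% of all tested probe sets), Gata3 (log2 difference -1.68), Isl1 (-1.62) and Chga (-0.56). Chgb (0.58) lay above (12.6%). Gata3 and Isl1 were low in the empty vector line too, at 224 and 545 against 554 and 1493 in the parental line. Kdm7a, the targeted gene, had signals of 487, 611 and 665 in the control lines and 130.3 and 136 in the knockdown lines by probe set 1456150_at. Of its tested probe sets this one had the largest log2 difference, -2.13 (SE 0.20). The other 2 tested of its 5 probe sets, 1435867_at and 1427359_at, also had both knockdown lines under all controls, with log2 differences of -1.99 (SE 0.25) and -1.86 (SE 0.40). The brightest, 1435867_at, had 231 in KDM7 KD1 and 143 in KDM7 KD2. Of the untested ones, under 40.5 in all 5 lines, 1459820_at lay below every control line and 1459821_x_at overlapped.

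Of the 9 T-box genes, 3 had a probe set that was bright in every line. These were Tbx2 with its 1 probe set, Tbx20 with all 3 and Tbx4 with 1 of 2. As probe sets these were 5 of 19, where 51.5% of all probe sets with 1 gene symbol were bright in every line. The remaining 14 T-box probe sets were not tested, and in 13 of them no line reached the level, with a highest signal of 40.3.

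**Figure D1:**
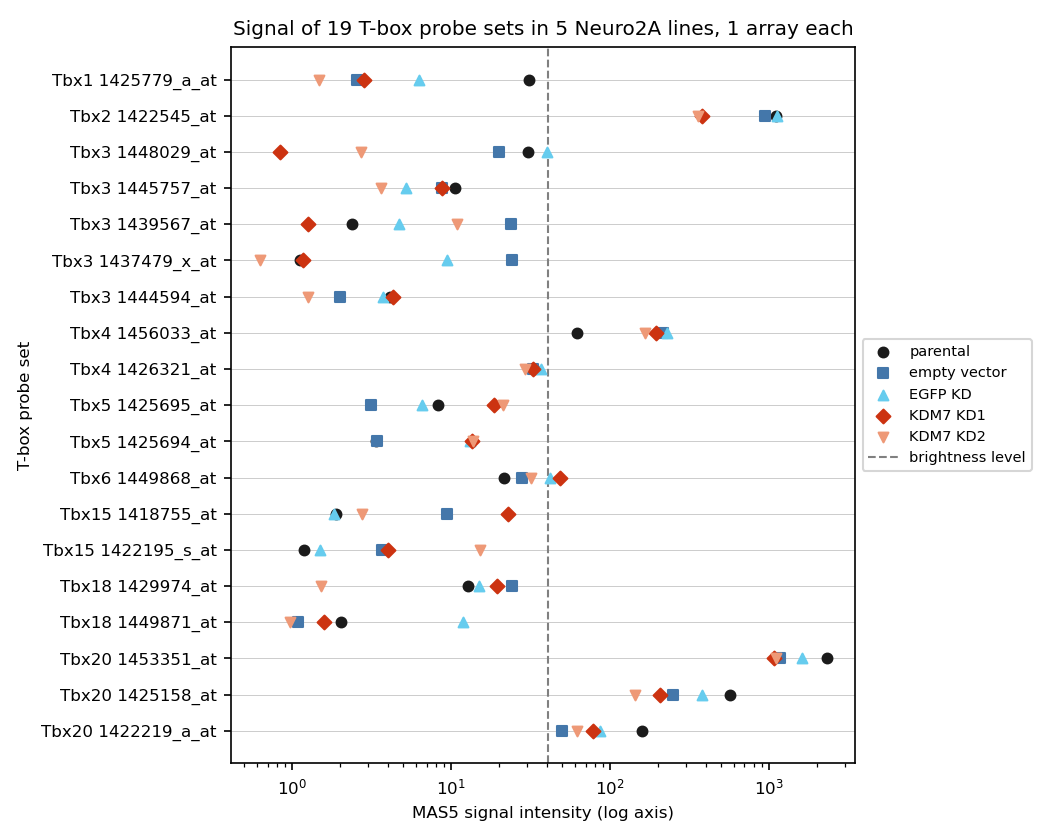
MAS5 signal (log axis, arbitrary units) of each of the 19 T-box probe sets in the 5 lines, 1 point per array, with the brightness level of 40.5 as a dashed line. The 5 probe sets of Tbx2, Tbx4 and Tbx20 that were bright in every line lie wholly to the right of it, and the points of the dim probe sets scatter with no shared order of lines.

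Tbx2 encodes a repressor of the T-box family that is active in the developing limb, heart and eye. Probe set 1422545_at gave 1105 in the parental, 946 in the empty vector and 1115 in the EGFP KD line. The signal was 377 in KDM7 KD1 and 356 in KDM7 KD2. The 3 control lines thus lay close together, both knockdown lines lay far below them, and the groups did not overlap. Control lines averaged 1055 ± 94.8 (SD, n = 3) and knockdown lines 366 ± 14.3 (SD, n = 2). Taken as a difference of mean log2 signals this was -1.52 (SE 0.16 from limma), or 2.87-fold lower with the knockdown. Ordered by level, the EGFP KD and parental lines stood first and the empty vector line next, and the gap between the empty vector line and KDM7 KD1 was wider than the whole spread on either side. This difference is the value by which the family was chosen, and it has no second probe set to compare with.

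Between the knockdown lines themselves Tbx2 hardly differed. KDM7 KD2 minus KD1 gave a log2 difference of -0.08 (SE 0.31). The family was not chosen by this comparison, but a choice by low signal in the knockdown lines can favour a small difference between them. The parental line differed from the vector-carrying control lines, empty vector and EGFP KD, by 0.11 (SE 0.20, adjusted p = 0.852 in limma). Neither difference passed the test, and each SE is larger than its difference. For KD2 minus KD1 each side is 1 array, and the residual spread comes from the 3 control lines alone, the parental line included.

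Tbx20 encodes a T-box factor required for the heart and for cranial motor neurons. Probe set 1453351_at, the brightest of its 3, had signals of 2308 in the parental, 1169.6 in the empty vector and 1599 in the EGFP KD line, and of 1071 and 1099 in KDM7 KD1 and KD2. Probe set 1425158_at had 567, 247 and 380.2 in the control lines in the same order, and 207 and 144 in the knockdown lines. Probe set 1422219_a_at had 159, 49.4 and 86.5, and 77.5 and 62.2. All 3 probe sets put the control lines in one order, parental above EGFP KD above empty vector.

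In 1453351_at and 1425158_at the knockdown lines were the lowest of the 5, by a small step from the empty vector line in 1453351_at and a wider one in 1425158_at. In 1422219_a_at the empty vector line was the lowest of all 5, so the groups overlapped. The log2 difference, knockdown minus control, was -0.59 (SE 0.26), -1.12 (SE 0.34) and -0.34 (SE 0.48) in the order of the probe sets above. Control means were 1692 ± 575, 398 ± 161 and 98.2 ± 55.5 (SD, n = 3), against 1085 ± 19.9, 176 ± 44.6 and 69.8 ± 10.8 (SD, n = 2) in the knockdown lines. In each probe set the control lines spread over a wider range than the step from the lowest control line to the knockdown lines. Without the parental line the 3 log2 differences were -0.33, -0.83 and 0.09. Without the empty vector line they were -0.82, -1.43 and -0.75. The size thus depends on which control lines are included, and for the dimmest probe set the sign rests on the parental line.

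The level of Tbx20 in the parental line was tested against the vector-carrying controls. The parental line was 1.69-fold higher by 1453351_at (log2 difference 0.76, SE 0.21), 1.85-fold by 1425158_at (0.89, SE 0.35) and 2.43-fold by 1422219_a_at (1.28, SE 0.46). The adjusted p in limma was 0.193, 0.309 and 0.276, and none passed. The parental group is 1 array, which the fit assumes to vary like the other groups. Tbx20 did not differ between the knockdown lines beyond its SE, with log2 differences of 0.04 (SE 0.44), -0.52 (SE 0.55) and -0.32 (SE 0.79) for KD2 minus KD1.

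Tbx4 encodes the T-box factor of the hindlimb and lung, and its gene is the next protein-coding one to Tbx2. Probe set 1456033_at had signals of 61.7 in the parental, 216 in the empty vector, 226 in the EGFP KD, 194 in the KDM7 KD1 and 166 in the KDM7 KD2 line. The parental line stood apart below all 4 vector-carrying lines, and among those the knockdown lines were the lowest. The vector-carrying controls were 3.58-fold above the parental line (parental minus vector-carrying controls, log2 difference -1.84, SE 0.28, adjusted p = 0.0742 in limma), which did not pass. In the same fit without the empty vector line the adjusted p in limma was 0.0371, and without the EGFP KD line 0.0383. Over the other alternatives the adjusted p in limma ranged up to 0.160.

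Between knockdown and control Tbx4 had means of 180.0 ± 19.9 (SD, n = 2) and 168 ± 92.2 (SD, n = 3), a log2 difference of 0.31 (SE 0.55). Without the parental line the difference turned to -0.30. The second probe set, 1426321_at, had 33.2, 32.7, 36.7, 32.8 and 29.1 in the parental, empty vector, EGFP KD, KDM7 KD1 and KDM7 KD2 lines. All were under the brightness level, and this probe set did not show the low parental value.

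**Figure D2:**
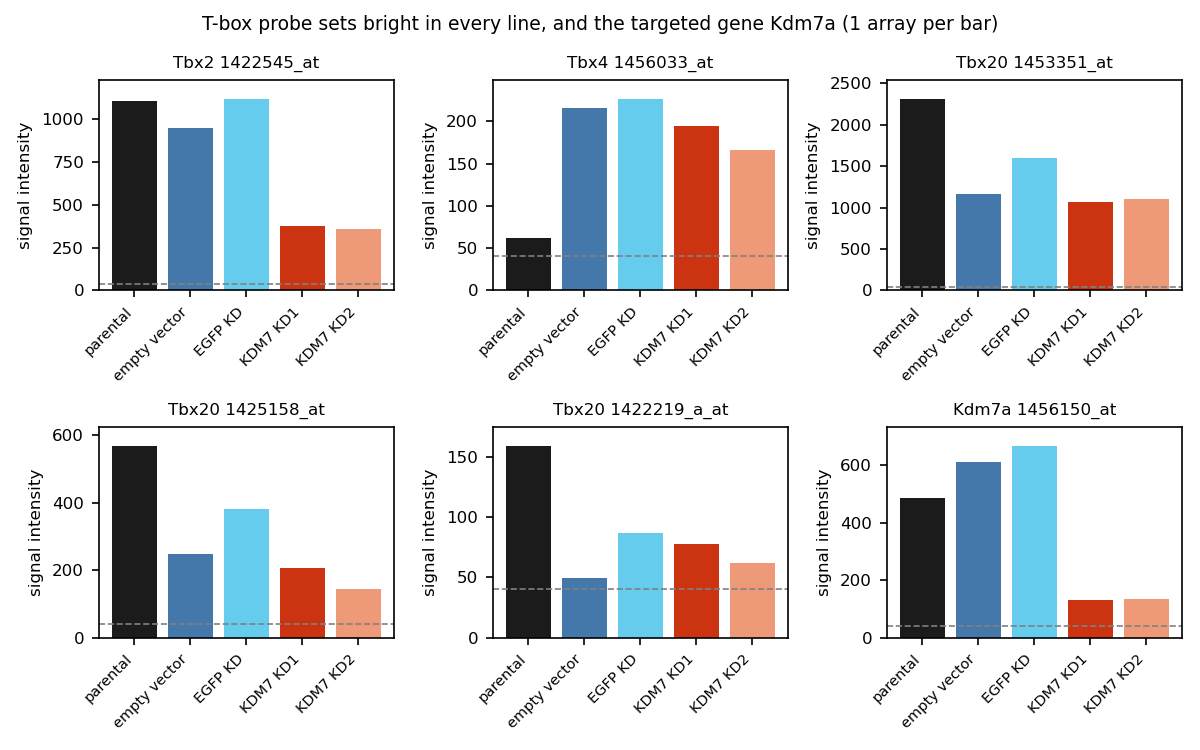
MAS5 signal (linear axis from 0) in each line for the 5 T-box probe sets bright in every line and for Kdm7a 1456150_at, 1 array per bar, with the level of 40.5 dashed. Tbx2 and Kdm7a are high in all 3 control lines and low in both knockdown lines, the Tbx20 panels are highest in the parental line, and Tbx4 is lowest there at 61.7.

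Of the 5 tested T-box probe sets, the knockdown pair was under all control lines for 3 and above all for 0, against 10.2% and 12.6% of the 22519 tested probe sets. Nothing is read from this count, since the contrast chose the family. Parental against vector-carrying controls gave 0 of 5 at an adjusted p under 0.05, against 0.155% of all, and 4 of 5 at an unadjusted p under 0.05, against 14.5% of all. Of those 4 probe sets 3 belong to Tbx20 and are not independent. KDM7 KD2 against KD1 gave 0 of 5 by the adjusted p (0.00444% of all) and 0 of 5 by the unadjusted p (1.51% of all). With shares this low by the adjusted p, a count of 0 of 5 says nothing particular about the family.

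**Figure D3:**
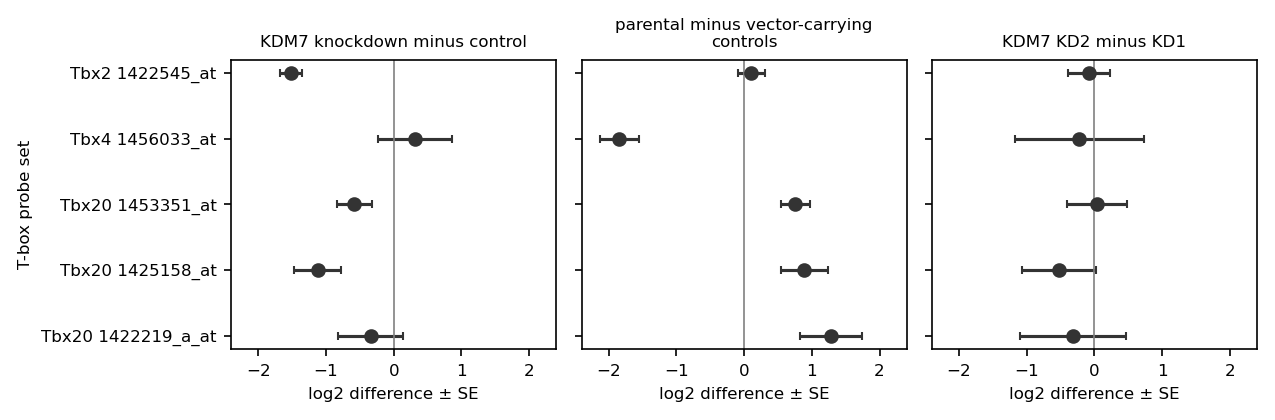
Log2 differences with limma standard errors for the 5 tested T-box probe sets in 3 comparisons of the same 5 arrays, with a line at 0. Tbx2 lies at -1.52 in the first panel and near 0 in the others, whereas Tbx4 at -1.84 and the 3 Tbx20 probe sets lie away from 0 in the middle panel.

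The other 6 T-box genes of the family were dim. Tbx3, the closest relative of Tbx2 and like it a repressor, had 5 probe sets with signals from 0.623 to 40.3. In 1448029_at the control lines had 30.4, 20.1 and 40.3 and the knockdown lines 0.843 and 2.70, so the groups did not overlap. In its other 4 probe sets the groups overlapped. All of these signals are under the level of 40.5 and were not shown to be above background. With an offset of 32 added to the signals, 1448029_at had a log2 difference of -0.87.

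Tbx5, the factor of the forelimb and heart, had signals of 8.21, 3.13 and 6.60 in the control lines and 18.6 and 21.2 in the knockdown lines by 1425695_at. By 1425694_at it had 3.35, 3.41 and 13.1 against 13.5 and 13.7, where KDM7 KD1 was barely above the EGFP KD line. Both probe sets thus put the knockdown lines above every control line, at signals where no level was established. Of the 14 untested T-box probe sets, 3 lay above every control line, 1 lay below and 10 overlapped. Among all tested probe sets the shares above and below were 12.6% and 10.2%. The shares among untested ones are not given, and nothing is read from these counts. With the offset of 32 the log2 differences were 0.45 and 0.25.

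Tbx6, which directs paraxial mesoderm, came nearest to the level among the untested. Its probe set 1449868_at had 21.6, 27.8 and 41.6 in the control lines and 48.2 and 31.8 in the knockdown lines, and reached 40.5 in the EGFP KD and KDM7 KD1 lines alone. Tbx1, needed for the pharyngeal arches, had 30.7 in the parental line and 1.47 to 6.23 in the other 4 lines. Tbx15, a factor of skin and skeleton, had signals from 1.19 to 22.9 over 2 probe sets. Tbx18, known from the sinoatrial node and ureter, had 0.973 to 24.1 over its 2. In Tbx15 1422195_s_at both knockdown lines, up to 15.2, lay above every control line, of which the highest was 3.65. In the remaining probe sets of Tbx1, Tbx15 and Tbx18 the groups overlapped.

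Of the T-box genes outside the 9, 6 had probe sets, and Mga was the 1 bright in every line. Mga encodes a large protein with a T-box and a second DNA-binding domain that pairs with Max. Its brightest probe set 1434746_at had 652, 835 and 946 in the control lines and 828 and 892 in the knockdown lines (log2 difference 0.10, SE 0.19), with the parental line lowest. Probe set 1422646_at differed by 0.03, and the dimmer 1431232_a_at had 49.5, 70.5 and 55.0 against 28.4 and 29.4. Its knockdown values are under 40.5. Eomes, Tbr1, Tbx19, Tbx21 and Tbx22 had no signal above 55.3 in any line and were not tested.

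The genes beside Tbx2 were read next. In the gene order of assembly GRCm38.p6, the 3 nearest tested genes on one side were Bcas3, Ppm1d and Appbp2, and on the other Tbx4, Brip1 and Ints2. Ppm1d, a phosphatase of the p53 response, had a log2 difference of 0.05 (SE 0.17), Appbp2 -0.07 (SE 0.12), Brip1, a DNA helicase, 0.09 (SE 0.20), and Ints2, an Integrator subunit, -0.02 (SE 0.13). Bcas3 had 0.63 (SE 0.43), at signals of 44.1 to 73.9 in the control lines and 58.2 and 120.0 in the knockdown lines. Of the 6 genes, 0 had both knockdown lines below every control line, where 10.2% of all tested probe sets did. For Tbx4, whose low parental signal is described above, Brip1 also had its lowest value in the parental line, at 264 against 311 to 347 in the other lines. Med13, a Mediator subunit and the farthest of the 3 tested on that side of Tbx4, had a log2 difference of 0.28 (SE 0.16) with both knockdown lines above every control line. Parental minus vector-carrying controls, the log2 difference was -0.32 (SE 0.22) for Brip1, 0.06 for Ints2 and -0.03 for Med13. It was -0.23 for Ppm1d and 0.68 for Bcas3 on the other side. Beside Tbx20, Dpy19l1 had 1096 in the parental line against 402 to 635 in the others, and Septin7 8872 against 6382 to 6980. Parental minus vector-carrying controls, their log2 differences were 1.12 (SE 0.29) and 0.38 (SE 0.10). The same comparison gave 0.43 (SE 0.29) for Herpud2, 0.28 (SE 0.52) for Bbs9, 0.15 (SE 0.15) for Rp9 and 0.06 (SE 0.22) for Acad8. Herpud2, Bbs9, Rp9 and Acad8 had log2 differences, knockdown minus control, from -0.54 to 0.13. A shared change of neighbouring genes was not tested.

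Genes were also ranked by likeness of profile, as the root mean square distance between log2 profiles over the 5 lines, each centred on its mean. Nearest to Tbx2 were Adamts10 (0.22), Tmtc1 (0.22), Meis1 (0.22), Dtd2 (0.22) and Ngfr (0.23). Tmtc1 had 819, 761 and 965 in the control lines and 368 and 407 in the knockdown lines. Meis1, a homeobox gene, had 319, 221 and 306 against 95.9 and 132, and Ngfr, the p75 neurotrophin receptor, 1885, 1774 and 1605 against 812 and 805. Nearest to Tbx20 1453351_at were Sox11 (0.07), a neuronal transcription factor, Hacd1 (0.07), Gpr173 (0.07), 1700008J07Rik (0.08) and Bambi (0.08), a decoy receptor of BMP and TGF-beta signals. Sox11 had 1767, 880.5 and 1137 in the control lines and 845 and 892 in the knockdown lines, and Bambi 1505, 723 and 913 against 688 and 638. Nearest to Tbx4 1456033_at were Atf2 (0.07), Pja1 (0.11), Podxl (0.11), Cgref1 (0.14) and Magi1 (0.14), each lowest in the parental line, for example Podxl at 24.1 against 72.7 to 86.1. Each of these parental signals was under 40.5, from 14.9 to 38.2. These distances are descriptions over 5 arrays, with no test.

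Genes known to act with or on T-box factors were read from lists, each gene by its brightest tested probe set. Over 6 lists with 75 different tested genes, limma called 0 for knockdown against control at an adjusted p under 0.05, where it called 2 of 22519 probe sets (0.00888%), so 0 says little about these genes. At an unadjusted p under 0.05 there were 14 of 75, of which 12 were lower, against 4.96% of all. The knockdown pair was under all control lines for 19 of 75 and above all for 3, against 10.2% and 12.6% of all. The 75 are the brightest tested probe set of each gene, whereas the shares of all count every tested probe set. The lists were chosen with earlier results of these data known, so no test of these shares is given. The median log2 difference over all 22519 tested probe sets was 0.03. Genes reported as repressed by Tbx2 or Tbx3 were 4 tested of 12 on the array, with a median of -0.17. Cdkn2a, which encodes p16 and p19Arf, had 1896, 2281 and 2041 in the control lines and 2189 and 2356 in the knockdown lines (log2 difference 0.14, SE 0.14). Cdkn1a, the p21 gene, had -0.15 (SE 0.18), Cdkn1b, the p27 gene, -0.20 (SE 0.13) and Smad7 -0.20 (SE 0.19). Of these 4 only Cdkn1b had both knockdown lines below every control line, and none had them above.

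Activated targets were 4 tested of 12, with a median of -0.13. Wnt5a had a log2 difference of -0.76 (SE 0.30), Dll1 0.71 (SE 0.50), Mycn -0.34 (SE 0.20) and Shox2 0.09 (SE 0.30), and in all 4 the groups overlapped. The cardiac targets Nppa and Gja5 were not among the tested. Partner proteins were 24 tested of 27, with a median of -0.06, and 5 lay below and 1 above every control line (10.2% and 12.6% of all tested probe sets). Isl1 had -1.62 (SE 0.55), Wwtr1, the Hippo effector TAZ, -1.43 (SE 0.57), Nkx2-5 -0.44 (SE 0.18) and Tle3, a Groucho corepressor, -0.29 (SE 0.12). In the empty vector line, too, Isl1 and Wwtr1 had low signals, at 545 and 101 against 1493 and 313 in the parental line.

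**Figure D4:**
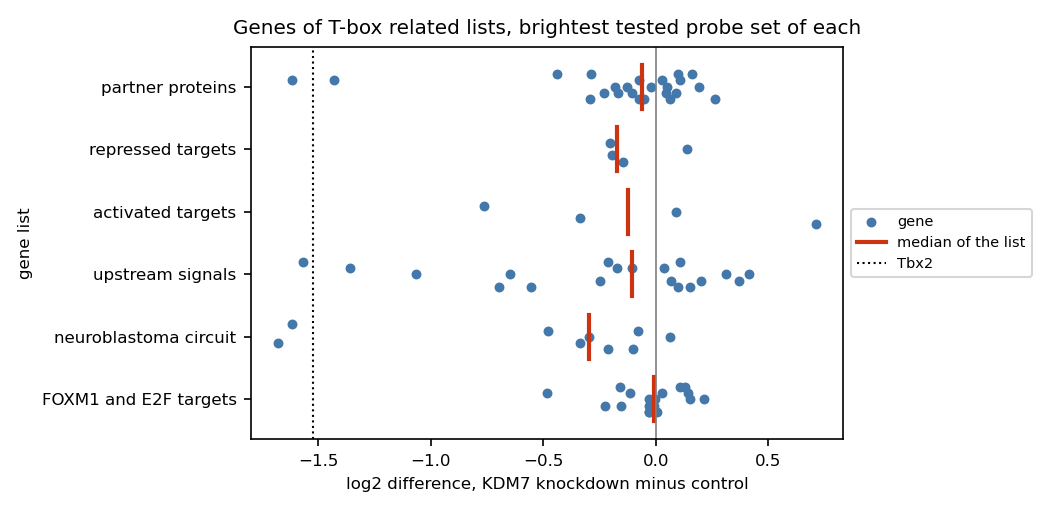
Log2 differences, knockdown minus control, of the tested genes of 6 lists related to T-box factors, 1 point per gene at its brightest tested probe set, with each list's median in red and Tbx2 as a dotted line at -1.52. The medians lie between -0.30 and -0.01, and single genes of the upstream, partner and circuit lists reach down to the level of Tbx2.

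Genes of pathways upstream of Tbx2 and Tbx3, mainly BMP, Wnt, Hedgehog and retinoic acid, were 19 tested of 26 with a median of -0.11. Of these 8 lay below and 1 above every control line (10.2% and 12.6% of all). The 8 were Id1, Id2, Id3, Smad6, Mitf, Axin2, Ctnnb1 and Bmpr2, and the 1 above was Bmpr1a. The list holds genes that respond to these pathways too, so the count does not measure the level of the signals. The BMP-responsive Id3 had 4812, 2941 and 2006 in the control lines and 857 and 1235 in the knockdown lines (log2 difference -1.57, SE 0.36). Id2 had -1.36 (SE 0.45), Smad6, a BMP feedback inhibitor, -1.07 (SE 0.27), and Mitf -0.70 (SE 0.30). Id3, Id2 and Smad6 were highest in the parental line, as was Tbx20. The neuroblastoma circuit genes were 9 tested of 10, with a median of -0.30. Gata3 had -1.68 (SE 0.46) and Hand2 0.06, and 2 of 9, Gata3 and Isl1, lay below every control line (10.2% of all). The empty vector line, at 224, had a Gata3 signal nearer to KDM7 KD1, at 178, than to the parental line, at 554. FOXM1 and E2F targets of the cell cycle were 19 tested of 19 with a median of -0.01. Ttk, a mitotic kinase, had -0.48 (SE 0.17) and Foxm1 itself -0.01. In this list 4 lay below and 1 above every control line (10.2% and 12.6% of all).

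Because T-box genes also mark mesenchyme and heart, markers of those cells were read beside them. Of 14 mesenchymal markers 3 were bright in every line, namely Vim, Fn1 and Pdgfra, and Col1a1, Col3a1, Twist1, Prrx1, Lum and Dcn were under 40.5 in all 5. The summed signal of the 14 was 24267 to 32286 in the control and 26618 to 29044 in the knockdown lines, highest in the parental line. Most of it was Vim, at 26864 in the parental line and 21576 to 26677 in the others. Tagln and Snai2, also on this list, were under 40.5 in all 5 lines and not highest in the parental line. Acta2, a smooth muscle actin, had 2733 in the parental line and 39.3 to 105 in the others, and parental against vector-carrying controls it was 4.96 higher on the log2 scale (SE 0.50, adjusted p = 0.0329 in limma). Of 10 muscle and heart markers 3 were bright in every line, Tnnt2, Myl2 and Ckm. The summed signal of the 10 was 467 to 700.2 in the control and 343 to 428 in the knockdown lines. Tnnt2 carried this separation, and without it the summed signals of the groups overlapped. Tnnt2, cardiac troponin T, had 351, 184 and 145 in the control lines and 74.4 and 67.0 in the knockdown lines. Myl2, a myosin light chain, had the knockdown lines above the controls instead, with 49.2, 93.6 and 100.4 against 122 and 109 (log2 difference 0.58, SE 0.37), and Ckm, muscle creatine kinase, had 0.27 (SE 0.33). Actc1 had 92.9 in the parental line and 26.95 to 40.2 in the others (parental minus vector-carrying controls, log2 difference 1.58, SE 0.51). Myh7, not tested, had 52.7 in the parental line and 9.64 to 14.96 in the others. Both reached 40.5 in the parental line alone. Tnnt2 was highest in the parental line too, whereas Myl2, Ckm, Myod1, Myog and Tnni3 were not. Myh6, Myl7, Tnni3 and Myog were under 40.5 in all 5 lines, and of these Myh6 and Myl7 were highest in the parental line. Of 6 Schwann and glial markers 2 were bright in every line, Erbb3 and Mbp, and the summed signal of the 6 was 243 to 509 in the control and 421 to 593 in the knockdown lines. The part of these markers in the Tbx20 and Tbx4 values was not tested.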

How the data were processed

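RNA of 5 lines was hybridised to 1 array each after biotin labelling, per the labels' protocols. The authors' deposited values are signal intensity on a linear scale made with MAS5, per the submitters' processing notes. No version of it is stated in the labels. The 2% trimmed mean was 500.0 on every array, so no further scaling was applied. The 64 control probe sets were left out, and signals were taken to log2. Of 45037 probe sets, 34945 had 1 symbol in the platform annotation, 932 several and 9160 none. All 9 members matched the gene table of assembly GRCm38.p6, which was used for gene order.

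Tests used limma 3.58.1 in R 4.3.3 (lmFit, eBayes with trend and robust) on the 22519 probe sets at or above the median, with Benjamini-Hochberg adjustment over all of them at 0.05. Knockdown against control had 3 residual degrees of freedom. Parental against vector-carrying controls, and line 2 against line 1, each had 2. The labels do not say that lines came from separate cultures, so p-values measure the spread between these arrays, whose number limits precision.

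The members and lists were chosen with earlier results of these data known. The text covers every member probe set by its values or range, and names up to 4 genes of each list by size of difference, 3 neighbours a side and 5 nearest profiles for each gene bright in every line, with Kdm7a. Other list genes named were chosen after their values were seen. Alternatives were other scalings, an offset, other brightness filters, eBayes without trend and robust, and leaving out each array.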

Additional observations from a re-analysis of the deposited data

How the results depend on the processing

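The count of T-box genes bright in every line was 3 and stayed 3 with the mean over the lines, after quantile normalization and without any 1 array. It was 2 at the 70th percentile, a signal of 244, where Tbx4 was lost. It was 1, Tbx20, at the 95th percentile of 39 genes of unrelated tissues, a signal of 976. That level rests on a few of those genes: 4 of the 39 were bright in every line, Gh, Pomc, Lor and Prm1. Tbx2 was above 976 in the parental and EGFP KD lines, at 1105 and 1115. It was below in the empty vector line, at 946, and in the knockdown lines, at 377 and 356. The Tbx2 log2 difference of -1.52 ranged from -1.63 with median centring to -1.44 with the offset of 32, and from -1.60 to -1.48 over the fits without 1 array. Tbx2 has 1 probe set, so the comparison with others was not run. Without the parental line Tbx4 1456033_at turned from 0.31 to -0.30 (range 0.20 to 0.64 without any other array) and Tbx20 1422219_a_at from -0.34 to 0.0861 (range -0.75 to -0.18). Median centring moved the median of all tested probe sets from 0.03 to -0.08 for knockdown minus control, and from -0.05 to 0.12 for parental minus vector-carrying controls.

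Calls of T-box probe sets for parental against vector-carrying controls were 0 in the main setting and 0 to 2 without 1 array. There were 1 (Tbx4) without the empty vector line, 2 (Tbx4 and Tbx20 1453351_at, adjusted p = 0.0202 in limma) without the EGFP KD line and 0 in the remaining alternatives. In those 2 fits each side was 1 array, and the spread came from the knockdown pair alone. Far more of all probe sets passed in them than the 35 of the main setting, and the reason was not tested. Over all probe sets this comparison gave 99 with median centring, 3 without a brightness filter, 4 at the 70th percentile, 26 after quantile normalization, 22 without KDM7 KD1 and 0 without trend and robust. Knockdown against control gave 0 to 4 over all alternatives, with 0 after cyclic loess, with the offset, without trend and robust, and without the EGFP KD line or KDM7 KD2. It gave 1 with median centring, without the empty vector line and without KDM7 KD1, and 4 without the parental line. Line 2 against line 1 gave 0 to 2. No paired analysis was possible because the labels give the control lines no replicate numbers. Values under 40.5 have no established level.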
